A study of Mus musculus with 8 samples.

Results

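The 127 microRNA precursor genes with an array signal were followed across the aorta of newborn mice with and without Lox. They were chosen by signal, as the genes whose probe set carried 1 gene symbol beginning with Mir and a digit or with Mirlet, host genes left out, and whose mean over the 8 arrays was at least 5 on the log2 scale. They were 127 of 478 such precursor genes (26.6%) and of 22180 genes measured by a probe set with a single symbol. The other 351 precursor genes had a mean below 5. Where 2 probe sets named 1 gene, which was so for 2 of the 127, the brighter was used.

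The aorta came from knockout (KO) pups lacking Lox, a gene which encodes lysyl oxidase, an enzyme that crosslinks elastin and collagen fibres, and from wild-type (WT) pups, all on an albino C57BL/6J background at p0, the day of birth. The 4 groups were KO ascending, WT ascending, KO descending and WT descending aorta. The ascending segment reached from the aortic valve as far as the ductus arteriosus, and the descending segment lay between the vena cava and the diaphragm. Each array held the RNA of 1 pool of 8 pups, with 2 arrays per group, so every group value has n = 2 pools. The labels do not describe the Lox deletion or give the litter or sex of the pups. Values are log2 signals from Affymetrix gene arrays, and a difference of 1 is a doubling.

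A microRNA gene is transcribed as a long primary RNA, which Drosha cuts to a hairpin and Dicer1 cuts to a short mature strand. An Argonaute protein carries the mature strand to messenger RNAs, which it recognises mainly through the seed, bases 2 to 8 of the strand, and holds down. Many hairpins lie in the introns of longer genes. Among vessel microRNAs, Mir143 and Mir145a are made from 1 primary transcript in smooth muscle, where they favour the contractile state. A probe set for a precursor reads RNA that contains the hairpin region, which may be the primary transcript or a host gene's intron, and the levels of mature microRNAs were not measured here. Signals of different probe sets do not rank their RNAs by abundance.

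The sequences shown first are those of 3 of the precursors that were lower in KO aorta, with a relative of 1 of them, printed 5′ to 3′ from RefSeq on GRCm38.p6. The sequence table used held a hairpin for 104 of the 127 genes and at least 1 mature strand for 110. In the mature strands the seed is in capitals, and Mir99a and the related Mir100 are shown together because their 5′ strands carry 1 seed.
miR-99a-5p: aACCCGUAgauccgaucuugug
miR-100-5p: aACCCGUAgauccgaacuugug
miR-99a-3p: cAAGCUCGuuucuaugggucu
They lie at chr16:77598940-77598961, chr9:41531437-41531458 and chr16:77598977-77598997, all on the + strand. Counted from 1 at the 5′ end, miR-99a-5p and miR-100-5p differed at 1 of 22 positions, U16A, which lies outside the seed. The seed ACCCGUA was carried by 3 mouse genes of the table, Mir99a, Mir99b and Mir100.

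The other precursors that were lower in KO aorta and are printed here are Mir452 and Mir3091, both arms of each.
miR-452-5p: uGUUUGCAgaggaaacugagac
miR-452-3p: uCAGUCUCaucugcaaagaggu
miR-3091-5p: cAUGGGUCugguugggcccgc
miR-3091-3p: cGGGCCUGaccagucucaagac
The miR-452 strands lie at chrX:72262271-72262292 and chrX:72262235-72262256 on the − strand, and the miR-3091 strands at chr2:180257547-180257567 and chr2:180257580-180257601 on the + strand. Neither seed of Mir452 was carried by another gene of the table. The sequences of Mir143 and Mir145a are not printed.

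The hairpins of Mir99a and Mir452 are printed here, and the capitals in them mark the 2 mature arms on either side of the loop.
Mir99a hairpin: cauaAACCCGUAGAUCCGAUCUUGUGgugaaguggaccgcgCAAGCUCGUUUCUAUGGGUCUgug
Mir452 hairpin: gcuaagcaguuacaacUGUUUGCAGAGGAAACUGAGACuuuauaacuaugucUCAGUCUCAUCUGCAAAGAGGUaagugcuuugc
The Mir99a hairpin is 65 bases long, at chr16:77598936-77599000 on the + strand, and the Mir452 hairpin is 85 bases long, at chrX:72262224-72262308 on the − strand. Where the array's probes sit, within these hairpins or in the RNA around them, is not known here.

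Over the 127 genes the mean signal had a minimum of 5.02 (Mir5120 and Mir697) and a maximum of 11.77 (Mir5099), against array medians over all probe sets of 5.11 to 5.19. Just inside the threshold lay Mir5120 at 5.02, Mir697 at 5.02 and Mir186 at 5.05. Just outside it lay Mir193b at 4.999, Mir709 at 4.997 and Mirlet7a-2 at 4.97. The signal of most precursor genes was below the typical probe set, and 175 genes would have met a threshold of 4.5 and 59 a threshold of 6.

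**Figure D1:**
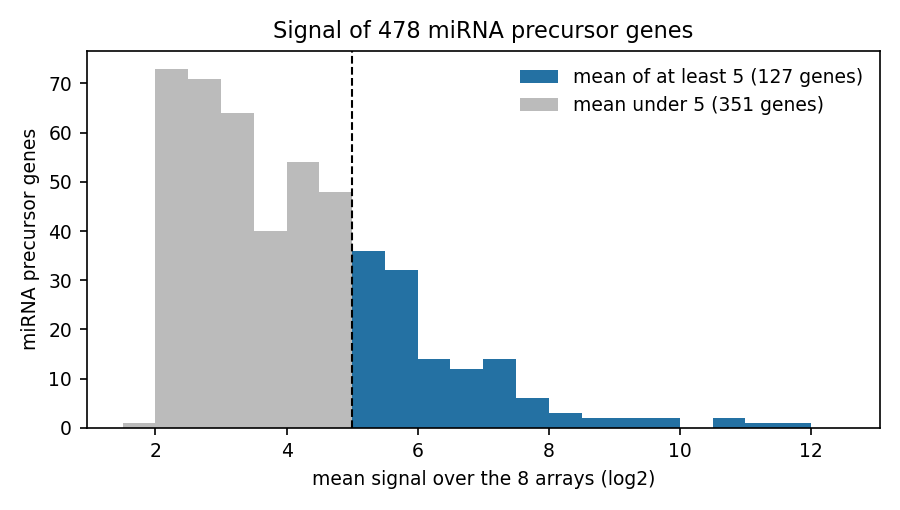
Histogram of the mean signal over the 8 arrays (log2, horizontal) of 478 microRNA precursor genes, with the number of genes on the vertical axis. The dashed line marks 5, with 127 genes at or above it (blue) and 351 below it (grey).

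None of the 12 members with the highest mean passed the test in any of the 7 comparisons. Mir5099 had 11.54 and 11.88 in KO ascending, 11.72 and 11.96 in WT ascending, 11.70 and 11.54 in KO descending and 11.75 and 12.06 in WT descending aorta. Mir449b, whose hairpin lies in the ciliogenesis-associated gene Cdc20b, ranged only from 11.27 to 11.53 over the 8 arrays. Cdc20b itself had a mean of only 4.70, and Sfmbt2, the gene around the bright Mir467c and Mir467e, one of 4.68. Which RNA these bright probe sets read was not tested. Neither Mir5099 (KO minus WT averaged over the segments -0.21, adjusted p = 0.286) nor Mir449b (-0.09, adjusted p = 0.540) passed the test. The next were Mir692-1 with a mean of 10.88, Mir703 with 10.61, Mir1195 with 9.75, Mir5125 with 9.69, Mir467c with 9.30, Mir680-2 with 9.29, Mir761 with 8.83 and Mir467e with 8.73. Mir467e is 1 example of a member whose 2 pools of a group lay apart, at 8.26 and 8.94 in KO descending against 8.62 and 9.53 in WT descending aorta.

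Mir210, the microRNA best known for its induction in hypoxia, had 8.37 and 8.10 in KO ascending against 8.16 and 8.17 in WT ascending aorta. In the descending aorta it had 8.13 and 8.40 in KO against 8.29 and 8.44 in WT, so the groups overlapped in both segments. Its difference averaged over the segments was -0.02 (SE 0.10, adjusted p = 0.934). Mir1956 completed the 12 brightest, with a mean of 8.25.

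Precursor genes varied more between pools of a group than other genes did. The median over genes of the within-group SD was 0.227 for the 127 members and 0.127 for all 16635 genes tested. Among genes with a mean between 5 and 6 it was 0.240 for 68 members and 0.151 for 3513 other genes. The standard error of a KO minus WT difference in 1 segment had a median of 0.18 for the members and 0.13 for all genes tested.

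Lox itself was 8.87 and 8.74 in KO ascending and 8.56 and 8.51 in KO descending aorta, against 11.47 and 11.60 in WT ascending and 11.41 and 11.24 in WT descending aorta, and whether its probes lie in the deleted part is not given. The tissue carried smooth muscle markers at a like level in every group. The summed log2 signal of Acta2, Myh11, Tagln and Cnn1 was 13.66 to 13.78 in KO ascending, 13.72 to 13.73 in WT ascending, 13.68 to 13.79 in KO descending and 13.71 to 13.76 in WT descending aorta, and none of the 4 passed the test by genotype. The summed signals of some other marker lists did differ between the genotypes, although not every marker of a list passed the test. The sum of 4 neutrophil markers was 11.48 to 11.57 in KO ascending against 8.78 to 9.75 in WT ascending aorta, and 10.63 to 11.32 in KO descending against 9.57 to 10.20 in WT descending aorta. The sum of 3 liver markers was 9.95 to 11.19 in KO descending against 8.07 to 8.61 in WT descending aorta, and 9.83 to 9.95 in KO ascending against 9.49 to 9.50 in WT ascending aorta. That of 2 lung epithelium markers was 5.99 to 6.16 in KO descending against 8.61 to 10.27 in WT descending aorta, with ascending groups overlapping. That of 3 fat markers was 7.29 to 7.44 in KO ascending against 8.25 to 8.95 in WT ascending, and 8.50 to 8.94 in KO descending against 9.70 to 10.31 in WT descending aorta. That of 4 endothelial markers was 11.03 in both KO ascending pools against 11.40 to 11.48 in WT ascending, and 11.39 to 11.40 in KO descending against 11.63 to 11.64 in WT descending aorta. The sum of 5 cardiac muscle markers was 11.39 to 11.85 in KO descending against 11.99 to 12.28 in WT descending aorta, without overlap, and 11.66 to 12.12 in KO ascending against 11.70 to 11.93 in WT ascending aorta, which overlapped. That of the 2 thymocyte markers measured was 6.77 to 6.84 in KO ascending against 6.89 to 8.63 in WT ascending, and 6.48 to 6.59 in KO descending against 6.18 to 6.43 in WT descending aorta. Among single neutrophil markers, 3 passed as higher in KO ascending and 0 in KO descending aorta, and among liver markers 0 and 3. As lower in KO, 0 lung epithelium markers passed in the ascending and 1 in the descending aorta. For fat markers these counts were 2 and 1, and for endothelial markers 1 and 1. No cardiac or thymocyte marker passed the test by genotype in a segment. The sums of 3 skeletal muscle markers overlapped between genotypes in both segments. The part of these markers in the differences between KO and WT precursor signals was not tested.

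The first question was which precursors differed by genotype. With the segments averaged, 5 of 127 were lower in KO aorta and 0 were higher at an adjusted p below 0.05. That is 3.94% of the members against a background of 11.4% of all genes tested, of which 6.21% were higher and 5.22% lower. The 5 were Mir99a, Mir452, Mir145a, Mir143 and Mir3091. The count of 0 higher did not hold in every setting, with 2 higher when arrays were shifted to 1 median and 3 higher without WT descending replicate 2. In the ascending aorta 3 members were lower and 0 higher (2.36% against a background of 2.74%, with 1.54% higher and 1.19% lower), namely Mir99a, Mir452 and Mir145a. In the descending aorta 1 member, Mir99a, was lower and 0 were higher (0.787% against a background of 2.28%, with 1.46% higher and 0.824% lower). The median difference of the members was -0.07 in the ascending and -0.06 in the descending aorta, against 0.01 and -0.01 for all genes tested. Single members ranged from -1.48 to 0.88 in the ascending and from -1.98 to 0.84 in the descending aorta.

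**Figure D2:**
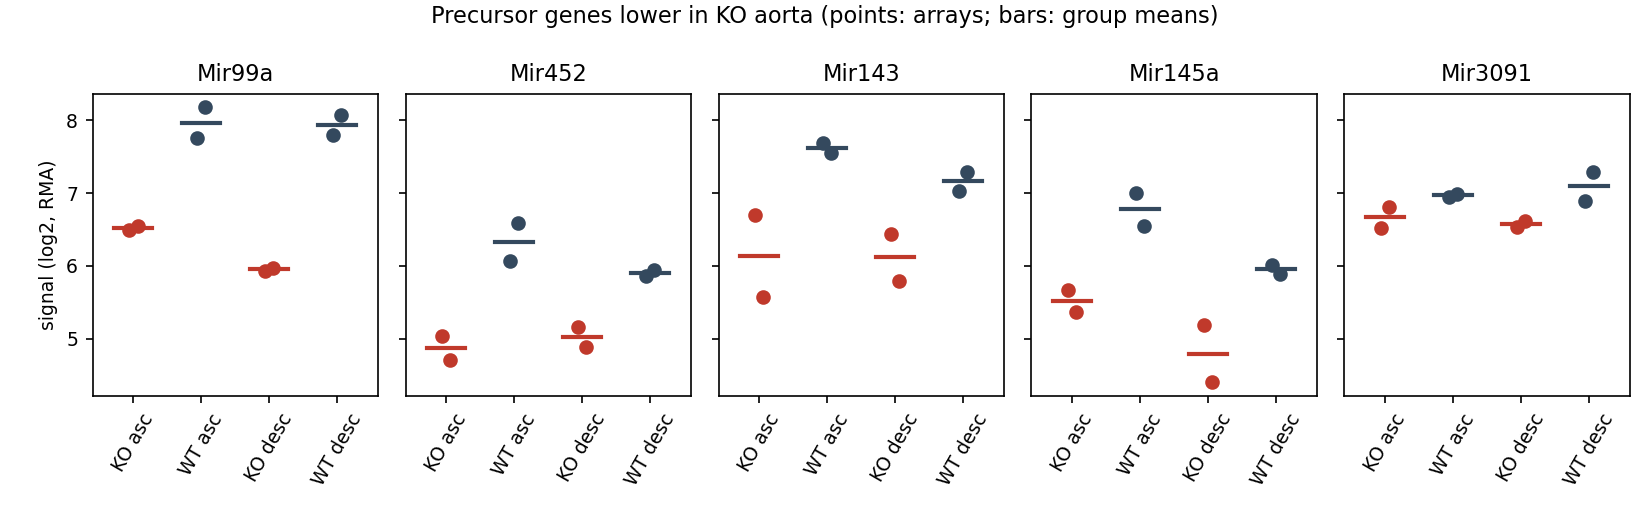
Signal (log2) on each array of the 5 precursor genes that passed the test with the segments averaged, in KO (red) and WT (blue) pools of the ascending (asc) and descending (desc) aorta; points are arrays and bars group means, n = 2 pools. No KO point of Mir99a reaches a WT point, and the 2 KO ascending pools of Mir143 lie apart at 6.70 and 5.58.

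Mir99a, a member of the family of miR-100 that is known to act on mTOR, had the largest KO minus WT difference of the 127 with the segments averaged. It had 6.49 and 6.54 in KO ascending against 7.76 and 8.18 in WT ascending aorta. It had 5.93 and 5.97 in KO descending against 7.79 and 8.08 in WT descending aorta. All 4 KO pools lay below all 4 WT pools, and the gap between the genotypes exceeded the spread within any group. It fell by 1.45 (SE 0.16, adjusted p = 0.00588, 2.73-fold) in the ascending and by 1.98 (SE 0.16, adjusted p = 0.00407, 3.95-fold) in the descending KO aorta. Averaged over the segments it fell by 1.72 (SE 0.11, adjusted p = 0.000319, 3.29-fold). It passed in all 16 alternative settings of the averaged comparison, at adjusted p-values of 3.36e-06 to 0.00294.

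Mir99a belongs to a chromosome 16 cluster in which RefSeq places Mir99ahg, Mir99a, Mirlet7c-1 and Mir125b-2 in that order. Mir99ahg, the host transcript of the cluster, had 5.98 and 6.40 in KO ascending against 6.38 and 6.63 in WT ascending, and 6.19 and 6.55 in KO descending against 6.46 and 6.77 in WT descending aorta. The genotypes overlapped in both segments. Its averaged difference was -0.28 (SE 0.13, adjusted p = 0.217) and did not pass. Mirlet7c-1 and Mir125b-2 were too dim to be tested, at 2.87 to 4.07 and 2.12 to 2.31 over the 8 arrays. Within the annotation used, the span of Mir99ahg does not contain Mir99a, although Mir99ahg is named as its host gene.

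Mir452 lies on the X chromosome inside Gabre, a GABA-A receptor subunit gene, next to Mir224. It had 5.04 and 4.71 in KO ascending against 6.06 and 6.59 in WT ascending aorta. It had 5.16 and 4.89 in KO descending against 5.87 and 5.94 in WT descending aorta, so no KO pool reached a WT pool. It fell by 1.17 (SE 0.13, adjusted p = 0.00272, 2.25-fold) averaged over the segments and by 1.45 (SE 0.19, adjusted p = 0.0115) in the ascending KO aorta. The descending difference was -0.88 (SE 0.19, adjusted p = 0.0539). The ascending call was lost without KO ascending replicate 2 (-1.29, adjusted p = 0.0551), without WT ascending replicate 2 (-1.19, adjusted p = 0.0534) and in a fit on the 4 ascending arrays alone (adjusted p = 0.0545).

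Gabre had 7.46 and 7.05 in KO ascending against 7.80 and 8.25 in WT ascending aorta, and 6.70 and 6.74 in KO descending against 7.77 and 7.62 in WT descending aorta. In both segments the KO pools were the lower ones, without overlap. Gabre fell by 0.87 (SE 0.13, adjusted p = 0.00587) averaged over the segments and by 0.98 (adjusted p = 0.0370) in the descending aorta, and the ascending difference was -0.77 (adjusted p = 0.0616). Mir224, the neighbour of Mir452 in Gabre, was too dim to be tested. Its signals were 3.78 and 3.51 in KO ascending against 4.47 and 4.14 in WT ascending, and 3.41 and 3.70 in KO descending against 3.72 and 4.15 in WT descending aorta.

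Mir143 and Mir145a both lie within Carmn, a long non-coding RNA gene of smooth muscle and heart. Mir145a had 5.67 and 5.37 in KO ascending against 7.01 and 6.55 in WT ascending aorta, and 5.19 and 4.40 in KO descending against 6.02 and 5.88 in WT descending aorta. In both segments every KO pool was below every WT pool. Its signal fell by 1.21 (SE 0.18, adjusted p = 0.00653, 2.31-fold) averaged over the segments and by 1.26 (SE 0.25, adjusted p = 0.0434) in the ascending KO aorta. In the descending aorta the difference was -1.16 (SE 0.25, adjusted p = 0.0575). The ascending call was lost in 8 of 17 alternatives, among them each of the 4 ascending arrays and each of the 2 WT descending arrays left out, at adjusted p-values of up to 0.157. Without KO descending replicate 2 the descending difference was -0.76.

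Mir143 had 6.70 and 5.58 in KO ascending against 7.68 and 7.55 in WT ascending aorta, and 6.44 and 5.79 in KO descending against 7.03 and 7.29 in WT descending aorta. The KO pools were the lower ones in both segments without overlap, but they differed from each other by more than the WT pools did. The within-group SD was 0.798 in KO ascending and 0.095 in WT ascending, and 0.460 in KO descending and 0.184 in WT descending aorta. Mir143 fell by 1.26 (SE 0.24, adjusted p = 0.0144, 2.40-fold) averaged over the segments. In single segments it did not pass, at -1.48 (SE 0.34, adjusted p = 0.0592) in the ascending and -1.04 (SE 0.34, adjusted p = 0.149) in the descending aorta. The ascending difference was -2.04 without KO ascending replicate 1 and -0.91 without KO ascending replicate 2.

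Carmn had 8.56 and 8.52 in KO ascending against 9.06 and 9.01 in WT ascending aorta, and 7.84 and 8.11 in KO descending against 8.56 and 8.73 in WT descending aorta. It was lower in KO pools without overlap in both segments, and less so on the log2 scale than the hairpins inside it. It fell by 0.58 (SE 0.09, adjusted p = 0.00656) averaged over the segments and by 0.67 (adjusted p = 0.0382) in the descending aorta, and the ascending difference was -0.50 (adjusted p = 0.0721). The smooth muscle marker sums given above overlapped between KO and WT pools in both segments, while these 3 RNAs were lower. The cardiac muscle marker sums overlapped in the ascending aorta and were lower in KO than in WT pools of the descending aorta, at 11.39 to 11.85 against 11.99 to 12.28, and their part in these differences was not tested. In pooled tissue, fewer cells of a type and less RNA per cell cannot be told apart.

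**Figure D3:**
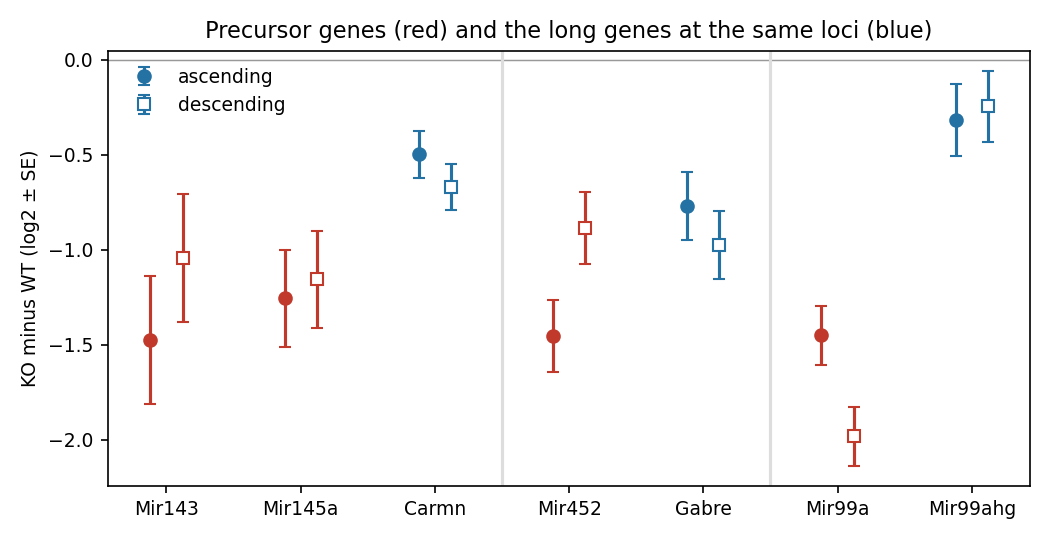
KO minus WT differences (log2, vertical, bars ± SE) in the ascending (filled circles) and descending (open squares) aorta for Mir143, Mir145a, Mir452 and Mir99a (red) and for the long genes Carmn, Gabre and Mir99ahg (blue) at the same loci. All 14 differences are below 0, with Mir99a lowest at -1.98 in the descending aorta and Mir99ahg nearest 0 at -0.25.

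Mir3091 lies within the span of Rps21, a ribosomal protein gene, for which no single-symbol probe set was used. It had 6.53 and 6.81 in KO ascending against 6.95 and 6.99 in WT ascending aorta, and 6.53 and 6.61 in KO descending against 6.90 and 7.29 in WT descending aorta. It fell by 0.41 (SE 0.11, adjusted p = 0.0428, 1.33-fold) averaged over the segments. This call was lost in 7 of 16 alternatives, with an adjusted p of 0.061 without the filter on dim genes. It was also lost without WT ascending replicate 1 (0.0834) or 2 (0.109), WT descending replicate 2 (0.105), KO ascending replicate 1 (0.121), or KO descending replicate 1 (0.115) or 2 (0.0848).

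Several members had low p-values before adjustment without passing it. Of the 127, 20 had an unadjusted p under 0.05 in the ascending aorta, 14 in the descending aorta and 23 with the segments averaged. These are 15.7%, 11% and 18.1% of the members, against 19.1%, 18.8% and 27.6% of all genes tested. Mir874, inside Klhl3, had 6.72 and 6.53 in KO ascending against 5.93 and 6.18 in WT ascending aorta, a difference of 0.56 (SE 0.13, adjusted p = 0.0559). In the descending aorta the order was turned, at 6.39 and 6.45 in KO against 6.61 and 6.49 in WT, a difference of -0.13 (adjusted p = 0.634). Klhl3 itself had an averaged difference of -0.07 (adjusted p = 0.639).

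Mir1949 had the highest ascending difference, with 5.86 and 5.95 in KO ascending against 4.81 and 5.23 in WT ascending aorta and 5.10 and 6.04 in KO descending against 4.32 and 5.27 in WT descending aorta. The descending pools overlapped, and the averaged difference was 0.83 (SE 0.25, adjusted p = 0.0681). Mir1192, within the span of the transcription factor gene Klf9, had an averaged difference of -0.42 (adjusted p = 0.0567). Klf9 itself fell by 0.48 (SE 0.11, adjusted p = 0.0290).

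Without any model, the 2 KO pools and the 2 WT pools did not overlap for 49 members in the ascending aorta (38.6%, against a background of 49.5%). In the descending aorta this was so for 43 members (33.9%, background 51.1%). It held in both segments in 1 direction for 13 members (10.2%, background 25.2%). Of these, 8 were lower in KO pools, being the 5 described above with Mir1192, Mir3067 and Mir340. The other 5 were higher in KO pools, namely Mir185, Mir187, Mir3088, Mir453 and Mir692-1, with averaged differences from 0.14 (Mir3088) to 0.37 (Mir453) that did not pass the test. The sign of the difference was shared by the segments for 82 members (64.6%, against 67.6% of all genes tested).

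**Figure D4:**
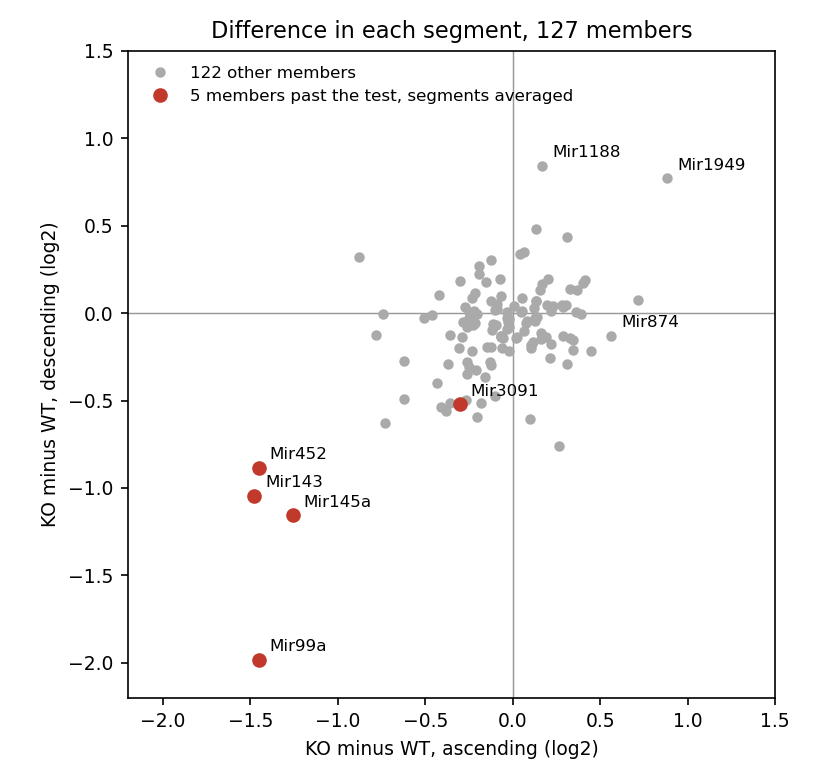
KO minus WT difference (log2) in the ascending (horizontal) and descending (vertical) aorta of the 127 precursor genes; the 5 that passed with the segments averaged are red. Mir99a, Mir452, Mir145a and Mir143 lie apart at the lower left, while Mir3091 lies at the edge of the other members.

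The next question was whether precursors differed between segments. In KO aorta 0 members passed the test of ascending against descending (background 1.48%), and in WT aorta 0 passed (background 1.48%). With the genotypes averaged 0 passed (background 4.07%). At an unadjusted p under 0.05 there were 13 members in KO, 11 in WT and 16 averaged, or 10.2%, 8.66% and 12.6%, against 12.1%, 12.3% and 15.7% of all genes tested. Mir145a came nearest, with a difference of 0.78 (SE 0.18, adjusted p = 0.0519) averaged over the genotypes. It was 0.73 (adjusted p = 0.285) in KO and 0.83 (adjusted p = 0.204) in WT aorta. Carmn was higher by 0.48 (adjusted p = 0.0200) in ascending aorta.

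Mir669a-3, of the intronic cluster in the imprinted gene Sfmbt2, had 6.23 and 5.36 in WT ascending against 4.81 and 4.59 in WT descending aorta, a difference of 1.09 (SE 0.24, adjusted p = 0.0785). In KO aorta it had 4.81 and 5.01 in the ascending against 4.95 and 5.08 in the descending segment, which overlapped. Mir194-2, best known from liver and gut epithelium, had 5.52 and 5.73 in WT ascending against 6.27 and 6.52 in WT descending aorta, a difference of -0.77 (SE 0.20, adjusted p = 0.129). In KO aorta it had 6.25 and 5.63 in the ascending against 6.18 and 6.03 in the descending segment. The liver marker sum was 9.49 to 9.50 in WT ascending and 8.07 to 8.61 in WT descending aorta, and its part in the Mir194-2 signal was not tested.

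Other segment differences had low p-values that did not pass after adjustment. Mir451a, a red cell microRNA that Ago2 rather than Dicer1 matures, had 5.55 and 5.62 in KO ascending against 5.14 and 5.26 in KO descending aorta, a difference of 0.38 (SE 0.12, adjusted p = 0.220) without overlap. In WT aorta it had 5.17 and 5.21 in the ascending against 5.07 and 5.35 in the descending segment. The 4 erythroid markers listed had no single-symbol probe set, so red cell content was not tested. In KO aorta the ascending minus descending difference was 0.69 for Mir1931 (adjusted p = 0.189), -0.70 for Mir5103 (adjusted p = 0.209) and 0.49 for Mir345 (adjusted p = 0.235). In WT aorta it was 0.51 for Mir5112 (adjusted p = 0.270). With the genotypes averaged it was 0.23 for Mir540 (adjusted p = 0.174) and -0.45 for Mir669m-1 (adjusted p = 0.184).

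Whether the genotype difference itself changed with the segment was asked with an interaction term. For 0 members did it pass, and the background was 0%, since no gene of the 16635 passed. At an unadjusted p under 0.05 there were 10 members (7.87%, against 5.6% of all genes tested). The smallest p-values belonged to Mir874 (0.69, SE 0.18), Mir669a-3 (-1.20, SE 0.34) and Mir1956 (0.56, SE 0.17), each with an adjusted p of 0.775, followed by Mir375 (0.66) and Mir15a (0.47), each with an adjusted p of 0.864. Mir1956, inside the translation factor gene Eif4e, had 8.56 and 8.36 in KO ascending against 8.12 and 8.10 in WT ascending, and 8.03 and 8.18 in KO descending against 8.22 and 8.42 in WT descending aorta. Its genotypes thus lay in opposite order in the 2 segments without overlap, by differences of 0.34 and -0.21. Mir99a had an interaction of 0.53 (adjusted p = 0.869), so its larger descending difference was not distinguished from its ascending one.

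A list of 65 names of well studied microRNAs of vessels, heart, fibrosis and blood was also read. Of these 40 had a single-symbol probe set and 4 were members, among them Mir143 and Mir145a. The remaining 2 were Mir451a, described above, and Mir483, an intronic microRNA of the growth factor gene Igf2. Mir483 had 7.77 and 6.88 in KO ascending against 7.14 and 6.90 in WT ascending, and 7.21 and 7.39 in KO descending against 7.39 and 7.11 in WT descending aorta. The genotypes overlapped in both segments, and the averaged difference was 0.18 (SE 0.18, adjusted p = 0.581). Igf2 had an averaged difference of 0.22 (adjusted p = 0.0946).

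Members that share a seed could be set side by side, although they are few. Among the 178 mature strands of the members, 11 seeds were shared, by 18 members in all. Mir99b carries the seeds of both Mir99a arms. It had 7.67 and 7.15 in KO ascending against 7.01 and 7.24 in WT ascending, and 6.98 and 7.11 in KO descending against 7.19 and 7.16 in WT descending aorta. Its differences were 0.29 (adjusted p = 0.406) and -0.13 (adjusted p = 0.727), against the falls of 1.45 and 1.98 for Mir99a. Mir100, with the same seed, was below the threshold and too dim to be tested, at 3.20 to 3.93 over the 8 arrays.

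Mir103-2 and Mir107 are shown because their 3′ strands, known for acting in insulin signalling, are nearly identical, and miR-194-5p because 2 members, Mir194-1 and Mir194-2, carry the same 5′ strand.
miR-103-3p: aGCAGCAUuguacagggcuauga
miR-107-3p: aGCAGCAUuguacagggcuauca
miR-194-5p: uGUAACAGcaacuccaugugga
The first 2 lie at chr2:131288103-131288125 on the + strand and chr19:34820700-34820722 on the − strand and differ at 1 of 23 positions, G22C. miR-194-5p is encoded at chr1:185313325-185313346 (Mir194-1) and chr19:6264658-6264679 (Mir194-2), both on the + strand. The hairpins of Mir103-2 and Mir107 are 83.9% identical, so their probe sets may not separate them fully. KO minus WT was -0.12 ascending and -0.19 descending for Mir103-2, and -0.07 ascending and 0.19 descending for Mir107. For Mir194-1 it was 0.05 and 0.01, and for Mir194-2 it was 0.31 and -0.29. Among the Mir181 genes it was -0.38 and -0.56 for Mir181b-2, -0.20 and 0.00 for Mir181c, and 0.05 and 0.00 for Mir181d, and none of these passed.

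Most members lie inside longer genes. RefSeq placed 88 of 127 (69.3%) within another gene, 53 of them on its strand where the strand could be read, against 231 of 351 (65.8%) of the dimmer precursor genes. For 8 members a spanning gene was on the opposite strand. For 70 pairs of a member and a spanning gene, over 63 spanning genes, both were tested. These pairs include spanning genes on the opposite strand, such as Tlr6 for Mir574. The Pearson correlation of their KO minus WT differences was 0.40 in the ascending and 0.40 in the descending aorta, and Spearman's was 0.32 and 0.18. These are correlations across genes that share arrays and, in part, spanning genes, so they describe the set and were not tested. Without Mir143, Mir145a and Mir452 the Pearson values over 67 pairs were 0.21 and 0.15. Member and spanning gene differed in the same direction in 42 pairs (60%) in the ascending and 40 pairs (57.1%) in the descending aorta. With the segments averaged they did so in only 36 pairs (51.4%).

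Individual pairs showed both patterns. Mir1956 differed by 0.34 and -0.21 in the ascending and descending aorta, and Eif4e by 0.42 and 0.24. Mir15a, known as a brake on the cell cycle, differed by 0.33 and -0.14, and its spanning gene Dleu2 by -0.28 and -0.30. Mir218-1 differed by -0.62 and -0.49, and the guidance gene Slit2 around it by -0.03 and 0.36. None of these 3 members passed the test in either segment.

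On chromosome 12, the stretch between the imprinted genes Dlk1 and Dio3 holds a large microRNA cluster made from maternally expressed non-coding RNAs such as Meg3 and Rian. Of its 43 precursor genes with a single-symbol probe set, 19 were members, which is 15% of the 127 members, against 6.8% of the dimmer precursor genes. KO minus WT was above 0 for 11 and below 0 for 8 of the 19 in the ascending aorta (median 0.03), and likewise 11 and 8 in the descending aorta (median 0.04). For all genes tested the medians were 0.01 and -0.01. None of the 19 passed in any of the 7 comparisons. With the segments averaged 3 had an unadjusted p under 0.05, Mir1188, Mir453 and Mir544, all above 0, where 27.6% of all genes tested had such a p.

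Mir1188, inside Rian, is shown because it had the largest positive difference in the descending aorta.
miR-1188-5p: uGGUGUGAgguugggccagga
It lies at chr12:109611841-109611861 on the + strand. Mir1188 had 6.05 and 6.45 in KO descending against 5.18 and 5.62 in WT descending aorta, without overlap, and 5.62 and 5.98 in KO ascending against 5.49 and 5.77 in WT ascending aorta, which overlapped. The differences were 0.84 (SE 0.20, adjusted p = 0.0749) in the descending, 0.17 (adjusted p = 0.717) in the ascending aorta and 0.50 (adjusted p = 0.0571) averaged.

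Rian had 9.63 and 9.63 in KO ascending against 9.10 and 9.35 in WT ascending, and 10.02 and 10.00 in KO descending against 9.24 and 9.61 in WT descending aorta. Every KO pool was above every WT pool of its segment. It rose by 0.50 (SE 0.10, adjusted p = 0.0191) averaged over the segments, while Meg3 had -0.07 (adjusted p = 0.670). Mir453, at the far end of the stretch, had 7.47 and 7.32 in KO ascending against 7.07 and 7.10 in WT ascending, and 7.38 and 7.39 in KO descending against 6.67 and 7.22 in WT descending aorta. These groups did not overlap either, with an averaged difference of 0.37 (adjusted p = 0.0784).

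**Figure D5:**
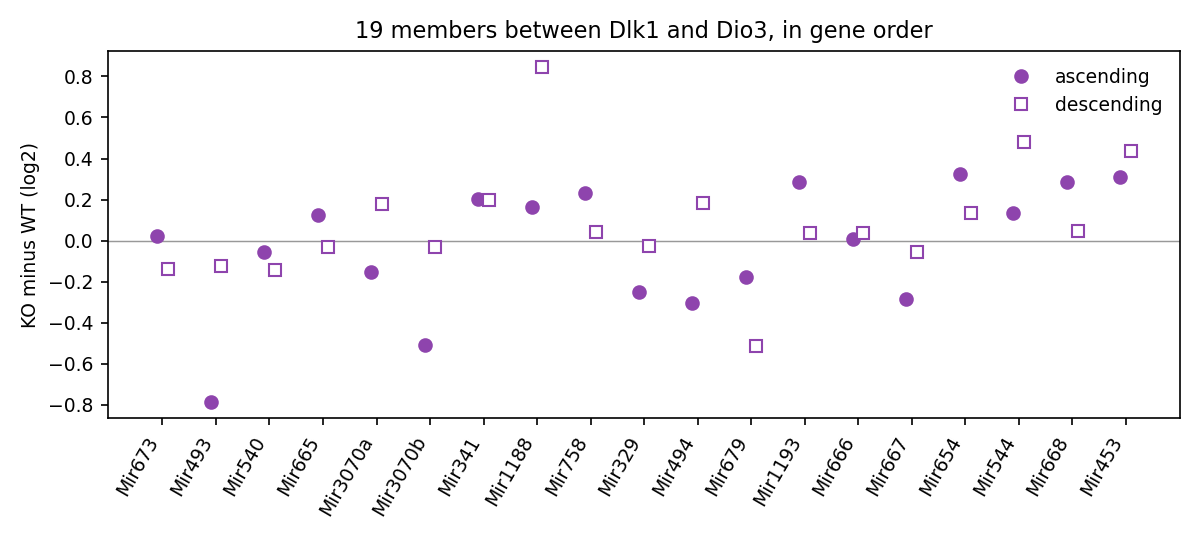
KO minus WT difference (log2, vertical) in the ascending (filled circles) and descending (open squares) aorta of the 19 precursor genes between Dlk1 and Dio3, in gene order from Dlk1 (horizontal). Values lie on both sides of 0, from -0.78 (Mir493, ascending) to 0.84 (Mir1188, descending).

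Of 28 listed genes that make, load or turn over microRNAs, 23 were tested, and 0 passed in either segment, in either segment comparison or in the interaction. Ago2, the slicing Argonaute, had 8.58 and 8.84 in KO ascending against 8.53 and 8.47 in WT ascending, and 8.77 and 8.73 in KO descending against 8.31 and 8.35 in WT descending aorta. Ran, which powers the export of hairpins from the nucleus and much other traffic, had 9.36 and 9.44 in KO ascending against 9.01 and 8.98 in WT ascending, and 9.36 and 9.30 in KO descending against 9.27 and 9.0002 in WT descending aorta. Neither gene's KO pools overlapped its WT pools within a segment. With the segments averaged 2 were higher in KO aorta, 0 were lower and 21 did not pass, against a background of 11.4%. Ago2 rose by 0.32 (SE 0.08, adjusted p = 0.0404) and Ran by 0.30 (SE 0.08, adjusted p = 0.0489). The nucleases that cut the precursors did not pass. Drosha had 7.38 and 7.31 in KO ascending against 7.41 and 7.51 in WT ascending, and 7.49 and 7.49 in KO descending against 7.47 and 7.34 in WT descending aorta. Dicer1 had 8.30 and 8.42 in KO ascending against 8.31 and 8.51 in WT ascending, and 8.38 and 8.31 in KO descending against 8.39 and 8.32 in WT descending aorta. Dicer1 pools overlapped between genotypes in both segments.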

How the data were processed

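The deposited log2 values came from RMA, run by the authors in Affymetrix Expression Console, per the submitters' processing notes. Versions, options and the genome build are not given there. Per the labels' protocols, NuGEN kits were used to amplify the total RNA and attach biotin. The table held 41345 probe sets, of which 23521 had 1 gene symbol in the platform table, 1814 several and 16010 none. For each of 22180 genes the probe set with the highest mean was used. The dimmest genes, up to the 25th percentile of the means (4.11), were not tested, so 16635 genes were. All 127 members lie above that limit by their rule, and 221 of 478 precursor genes were tested.

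Tests used limma 3.58.1 in R 4.3.3, over all 8 arrays with a coefficient for each of the 4 groups and eBayes defaults (residual df 4, prior df 4.51). Benjamini-Hochberg adjustment ran over every gene tested, and a gene rose, fell or passed where this adjusted p was under 0.05. The p-values measure the spread between pools, not between pups. No array has a read depth, and the 2 arrays per group limit the precision. The method was tested on simulated data with known changes and independent arrays. How often changes of the sizes found here are recovered is not given. The members and lists were chosen with earlier results of these data known. The overall mean chose the members, and no comparison used here is that mean. A member near 5 can still owe its place to the groups where it is high. Pools under 5 were found for Mir452 in KO, Mir669a-3 in WT descending and Mir1949 in WT aorta. The membership of these genes therefore rests in part on the groups where they were higher. Members described are those that passed, the 5 smallest p-values of each comparison, the 12 brightest and those with a listed role, and others named were chosen after their values were seen. Seeds, hairpins and spanning genes came from RefSeq (GRCm38.p6). Gene positions were matched by gene ID for all 127 members, hairpins were available for 104 and mature strands for 110. Alternatives were other dim-gene filters, a trended robust prior, cyclic loess, a shift to 1 median, the replicate number as a block, other handling of several probe sets, a fit on the arrays compared, other signal thresholds and each array left out. Figures were drawn with matplotlib 3.10.9.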

Additional observations from a re-analysis of the deposited data

How the results depend on the processing

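Mir99a fell in every alternative run. In the comparison averaged over the segments Mir145a and Mir143 fell in every alternative, and Mir452 in each of the 15 that tested it. No described difference changed its sign past the threshold. The counts of members that passed moved more. In the ascending aorta the count was 4, of which 1 was higher in KO, with the 50th percentile filter, a trended robust prior or cyclic loess. It was also 4, all lower, with the median shift or the replicate block. In the report it was 3, against 1 in a fit on the arrays compared and 1 at a threshold of 6. In the descending aorta it was 1, against 4 with a trended robust prior, 3 when genes below the 50th percentile were left out, 2 at a threshold of 4.5 and 1 to 2 with an array left out. Averaged over the segments it was 5, against 8 with the trended prior, 9 at a threshold of 4.5, 3 at a threshold of 6 and 5 to 8 with an array left out (8 without WT descending replicate 2 or KO ascending replicate 2). Ascending against descending gave 0 in KO, against 1 at a threshold of 4.5 and 0 to 1 with an array left out. In WT it gave 0, against 1 with the trended prior, 1 with arrays shifted to 1 median, 1 at a threshold of 4.5 and 0 to 1 with an array left out. Averaged over genotypes it gave 0, against 1 with the 50th percentile filter, the trended prior, the median shift or a threshold of 4.5, and 0 to 3 with an array left out (3 without WT descending replicate 2). Members higher in KO with the segments averaged, 0 in the report, numbered 2 with the trended prior, the 50th percentile filter, the median shift or the replicate block, and up to 3 with an array left out (without WT descending replicate 2). The interaction gave 0 members in every alternative. The causes of these moves were not tested, except that another threshold changes which genes are members. Calls over all genes moved as well. In the ascending aorta they went from 455 to 1014 with the trended prior, 756 with the 50th percentile filter and 411 with the median shift. In the descending aorta they went from 380 to 922, 717 and 288 in the same order. Averaged over the segments they went from 1902 to 2604, 2308 and 1561. With the 50th percentile filter only 84 of the 127 members were tested.

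The labels number the pools of each group 1 and 2 without tying a number to a litter or day. Same-numbered pools deviated together only weakly, with correlations over genes of -0.10 to 0.13, so the pools were not taken as pairs. The sample titles do not say whether ascending and descending pools of a genotype came from the same pups, and the fit took the 8 arrays as independent. With the replicate number as a block, 3 members passed in the descending aorta, 4 in the ascending aorta and 8 averaged over the segments. In the segment comparison averaged over genotypes 1 passed. Calls over all genes in these comparisons were 200, 384, 1725 and 636, against 380, 455, 1902 and 677 without the block. Mir1188 passed as higher in KO descending aorta with that block (adjusted p = 0.0201), with the trended prior (0.0292) and with the 50th percentile filter (0.0416). Mir874 passed as higher in KO ascending aorta with that filter (0.0296), with the trended prior (0.0303) and with cyclic loess (0.0476). In the averaged segment comparison Mir145a passed in 5 of 16 alternatives.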

Other observations

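Some members are near copies of each other. Mir3070a and Mir3070b are 94.4% identical and Mir680-1 and Mir680-2 87.3% identical over their hairpins. KO minus WT was -0.15 ascending and 0.18 descending for Mir3070a, and -0.51 ascending and -0.03 descending for Mir3070b. It was -0.15 and -0.20 for Mir680-1, -0.31 and -0.20 for Mir680-2, and 0.10 and -0.60 for Mir680-3, which has the same mature strand. None of these passed the test, and array probes for such copies may read each other's RNA.

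Of the 127 members 25 lie on chromosome 12 and 9 on the X chromosome. Mir452 is the only member of the 9 that fell.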
